A study of Mus musculus with 6 samples.

Results

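Wild-type KDM5A was compared with empty vector in immortalized mouse embryonic fibroblasts whose own Kdm5a gene is deleted (KDM5A-/-), on a mixed strain background. The comparison used 4 of the 6 arrays of the series: empty vector replicates 1 and 2, and wild-type KDM5A replicates 1 and 2. All groups share the deletion, so the empty vector cells are the knockout control. The remaining group of 2 arrays carried KDM5A-H483A, a form with the histidine at that position replaced by alanine, and is given beside the members for reference only. For each gene, the replicate 1 difference (wild-type KDM5A minus empty vector) and the replicate 2 difference were taken on the log2 scale. A gene was described when its differences had the same sign and each was at least 0.5, a 1.41-fold difference. Of 18194 genes, 54 (0.297%) met this rule, 32 (0.176%) higher and 22 (0.121%) lower with wild-type KDM5A. After each array was centred on its median, the same rule gave 50 higher and 12 lower genes, so the share of higher genes was 59.3% as deposited and 80.6% after centring. The differences chose the genes, so their sizes are given as a description without a test.

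KDM5A, also known as RBP2 or JARID1A, removes methyl groups from lysine 4 of histone H3, a mark found at the start sites of active genes. It binds the retinoblastoma protein, occurs in complexes with SIN3 proteins and histone deacetylases, and is best known as a repressor, although activated genes have been described too. Its DNA-binding ARID domain recognizes the letters CCGCCC. In fibroblasts and other cells, KDM5A has been linked to cell cycle exit, differentiation and mitochondrial genes. The arrays measured RNA alone, and histone methylation was not analysed here.

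Values were log2 expression after RMA, on Affymetrix mouse M430 2.0 arrays, with RNA from subconfluent cultures in serum. Medians over all probe sets lay between 4.55 and 4.60 in the 6 arrays. Arrays of a group are numbered 1 and 2 and named biological replicates, and whether a number stands for a shared culture, day or batch is left unsaid. The sources used here give neither the vector, its promoter and delivery, nor whether a culture was a clone or a pool. All p-values measure only the spread between these arrays, which may be technical. Fibroblast markers were bright, with a median level of 9.32 over 15 genes. Their mean level was 9.91 and 9.73 with empty vector and 10.1 and 9.38 with wild-type KDM5A. The 7 marker lists of other cell types had median levels between 3.68 and 6.14, against 5.52 over all genes. Neural and glial markers were the brightest of these, with 10 of 13 members at or above the probe set median of 4.58. Their mean level was 5.80 and 5.84 with empty vector and 5.71 and 5.92 with wild-type KDM5A. Olig2 lay between 2.33 and 2.66 in the 6 arrays, and Stmn2 between 6.90 and 8.03. Of the members of these 7 lists, Klf4, which is also a marker of pluripotent cells, was the only one to meet the rule. In bulk samples, fewer cells of a type and less RNA per cell cannot be told apart.

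Kdm5a itself did not separate the groups. The probe set that represents it, its brightest, stood at 5.89 and 5.83 with empty vector and at 5.96 and 5.83 with wild-type KDM5A. A further probe set (1437105_at) had differences of opposite sign, 0.51 in replicate 1 and -0.35 in replicate 2. Its other 4 probe sets lay between 3.01 and 4.62 and differed by at most 0.39. The sources used here do not place the probes relative to the deletion or to the added sequence, so these values check neither. Among the relatives, differences in replicates 1 and 2 were -0.21 and 0.08 for Kdm5b, 0.44 and -0.06 for Kdm5c, and 0.15 and -0.42 for the Y-linked Kdm5d. None of these 4 family members met the rule. The other 3 Kdm5b probe sets had differences of 0.39 and 0.00, -0.13 and -0.05, and 0.02 and 0.34. The 8 others of Kdm5c lay between -0.27 and 0.24, and the 2 others of Kdm5d between -0.11 and 0.09. No probe set of a family member met the rule either.

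**Figure D1:**
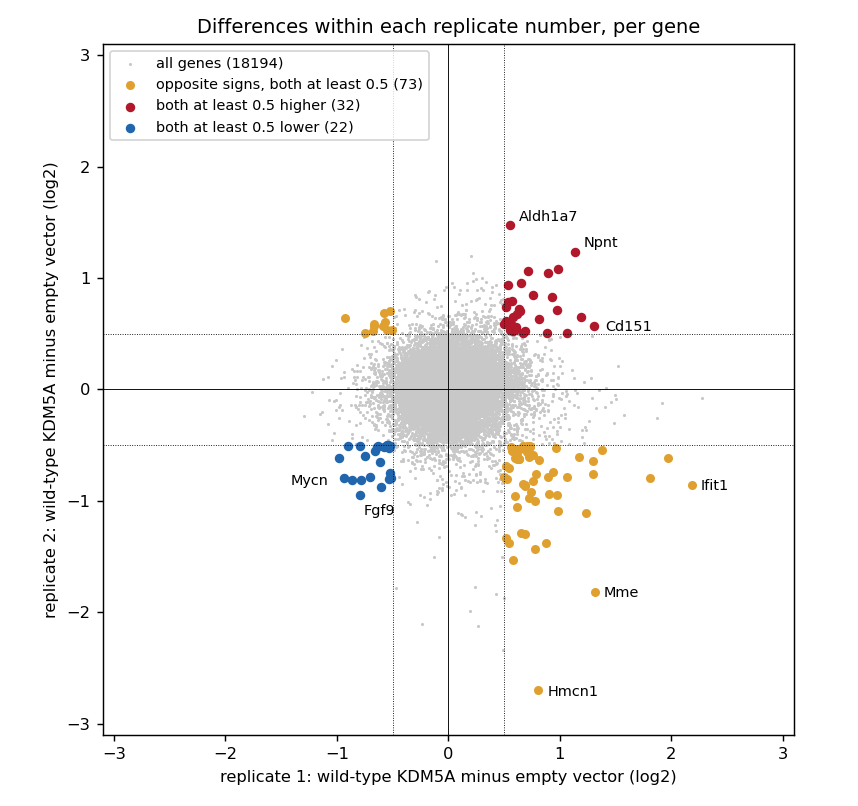
Differences between wild-type KDM5A and empty vector on the log2 scale, replicate 1 on the x axis and replicate 2 on the y axis, for 18194 genes. Red points (32) and blue points (22) lie at least 0.5 from 0 in the same direction on both axes, and orange points (73) lie at least 0.5 from 0 in opposite directions.

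The 54 genes were a small part of those that differed in either replicate alone. In replicate 1, 1144 genes differed by at least 0.5, and in replicate 2, 700 genes did. Another 73 genes (0.401%) had differences of at least 0.5 in both replicates but of opposite sign. Of these, 62 were higher with wild-type KDM5A in replicate 1 and lower in replicate 2, and 11 were the reverse. More genes therefore went opposite ways between the replicates than went the same way at this size. Among the 54, the median size was 0.64 in replicate 1 and 0.65 in replicate 2, and 51 had a mean level at or above the probe set median. The dim ones were Atg16l2, Rpl41 and Btla, whose mean levels were 3.95, 4.12 and 3.90. No filter on low values was applied, so all 54 are accounted for below.

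The groups did not overlap in 48 of the 54 genes, meaning that both wild-type KDM5A arrays lay on the same side of both empty vector arrays. Over all genes this held for 31.8%, and since the rule used the same contrast nothing is read from the comparison. In 17 genes the groups were at least 0.5 apart without any use of the replicate number, 11 of them higher and 6 lower (0.0934% of all genes). The 6 genes whose groups overlapped were Hmox1 and Pdk4 on the higher side and Tenm3, Pabpc4l, Rab14 and ND5 on the lower side.

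Promoter sequence was available from RefSeq (GRCm38.p6) for 43 of the 54 genes. The 250 bases before the start site were searched on both strands for CCGCCC, whose reverse complement GGGCGG is also the core of the GC box bound by Sp1 factors. Of the 43 genes, 24 (55.8%) held the motif at a listed start site, against 53.4% of the 14453 measured genes with promoter sequence. Of all 32851 promoters of that length in the table, 32.7% held it. That share counts each promoter rather than each gene, so it is not comparable with the others. Among genes with a promoter, the motif was present in 14 of 24 higher and 10 of 19 lower ones. The share among the described genes was close to that of measured genes, so promoters of both kinds are shown here for the first 3 genes of each direction that the table holds. Motif letters are in capitals and the sequences run 5′ to 3′ on the strand of the gene, for Npnt (chr3:132950292-132950541, minus strand), Sema3c (chr5:17574566-17574815, plus strand), Pdk4 (chr6:5496279-5496528, minus strand), Mycn (chr12:12941837-12942086, minus strand), Rgs4 (chr1:169747643-169747892, minus strand) and Fgf9 (chr14:58072436-58072685, plus strand). For Npnt, the table lists 2 start sites; the more upstream one is printed, and the window of the other held 0 matches.
Npnt: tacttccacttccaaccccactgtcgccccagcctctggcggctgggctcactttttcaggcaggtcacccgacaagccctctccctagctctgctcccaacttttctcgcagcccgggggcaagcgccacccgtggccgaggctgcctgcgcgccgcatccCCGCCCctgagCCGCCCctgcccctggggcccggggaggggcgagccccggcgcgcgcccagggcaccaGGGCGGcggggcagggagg
Sema3c: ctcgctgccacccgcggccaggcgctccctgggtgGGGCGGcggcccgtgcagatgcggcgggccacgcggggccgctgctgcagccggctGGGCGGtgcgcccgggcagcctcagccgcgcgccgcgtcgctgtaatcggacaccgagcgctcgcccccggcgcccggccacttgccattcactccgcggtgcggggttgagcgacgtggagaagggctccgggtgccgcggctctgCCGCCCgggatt
Pdk4: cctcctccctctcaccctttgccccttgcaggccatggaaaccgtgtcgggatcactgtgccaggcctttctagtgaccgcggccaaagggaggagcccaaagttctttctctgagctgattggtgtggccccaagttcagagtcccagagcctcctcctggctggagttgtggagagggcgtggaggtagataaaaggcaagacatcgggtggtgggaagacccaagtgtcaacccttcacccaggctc
Mycn: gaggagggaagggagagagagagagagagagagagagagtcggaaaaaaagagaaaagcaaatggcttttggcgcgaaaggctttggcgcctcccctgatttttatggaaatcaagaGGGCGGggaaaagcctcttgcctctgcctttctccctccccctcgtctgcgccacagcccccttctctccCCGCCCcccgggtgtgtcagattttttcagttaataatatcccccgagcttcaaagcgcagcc
Rgs4: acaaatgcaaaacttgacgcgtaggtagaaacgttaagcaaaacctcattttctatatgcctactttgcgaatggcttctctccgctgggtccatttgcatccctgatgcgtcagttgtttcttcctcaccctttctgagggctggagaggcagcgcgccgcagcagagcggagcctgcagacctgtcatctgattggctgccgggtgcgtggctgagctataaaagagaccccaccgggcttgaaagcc
Fgf9: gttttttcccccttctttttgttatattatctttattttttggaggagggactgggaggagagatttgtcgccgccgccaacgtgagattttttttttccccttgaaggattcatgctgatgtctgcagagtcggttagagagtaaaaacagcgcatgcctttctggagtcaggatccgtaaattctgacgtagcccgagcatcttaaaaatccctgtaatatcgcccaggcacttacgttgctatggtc
The promoters of Npnt and Sema3c held 3 matches each and were rich in G and C, at 74.0% and 78.4%. Mycn held 2 matches, and Pdk4, Rgs4 and Fgf9 held 0. A match is a description of the letters in the window and not a measured binding site.

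Genes of adhesion, guidance and the cell surface included Npnt and Nrn1, whose groups were the farthest apart of the 54 genes. Npnt, the gene of nephronectin, a basement membrane protein that binds an integrin, stood at 5.48 and 5.47 with empty vector and at 6.61 and 6.70 with wild-type KDM5A. Its differences were 1.14 and 1.23, and the groups were 1.14 apart, more than in any other of the 54 genes. Nrn1, which encodes the membrane-anchored neurite factor neuritin, stood at 7.61 and 7.49 against 8.60 and 8.58. Both wild-type arrays of Nrn1 thus lay 0.97 or more above both empty vector arrays. The secreted guidance cue Sema3c stood at 7.14 and 7.38 with empty vector and 8.07 and 8.21 with wild-type KDM5A, a gap of 0.70. Replicates of Npnt and Nrn1 lay within 0.12 of each other in both groups, and the promoters of Npnt and Sema3c are those printed above.

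Further surface genes were higher with less even replicates. Thbd, which encodes the thrombin receptor thrombomodulin, stood at 7.65 and 7.42 against 8.84 and 8.06, so its difference was 1.19 in replicate 1 and 0.65 in replicate 2. Cd151, a tetraspanin that associates with laminin-binding integrins, stood at 6.85 and 7.61 against 8.16 and 8.18. Its empty vector arrays lay 0.76 apart and its wild-type arrays 0.02 apart. Pcdh7, a protocadherin, stood at 6.15 and 6.74 against 7.21 and 7.24, with the same shape. In Cd151 and Pcdh7, replicate 1 supplied the larger difference, at 1.31 and 1.06 against 0.57 and 0.50.

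On the lower side of this group stood Chodl, Tenm3 and Ccn4. Chodl, a membrane lectin gene, stood at 5.46 and 5.58 with empty vector and 4.68 and 4.77 with wild-type KDM5A, with groups 0.70 apart. Ccn4, a Wnt-induced matricellular gene also known as Wisp1, stood at 8.996 and 8.97 against 8.48 and 8.17. The adhesion receptor gene Tenm3 stood at 6.04 and 5.14 against 5.43 and 4.49, so the replicates differed more than the groups, and the groups overlapped. Of 31 measured genes of basement membrane and cell-matrix adhesion, Npnt alone met the rule. Itga8, the alpha subunit of the nephronectin receptor, had differences of -0.20 and -0.37. Itga6, an alpha subunit of laminin receptors, had differences of 0.47 and 0.80 and stayed just short of the rule. The laminin gene Lama4 had differences of 0.61 and -0.62.

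**Figure D2:**
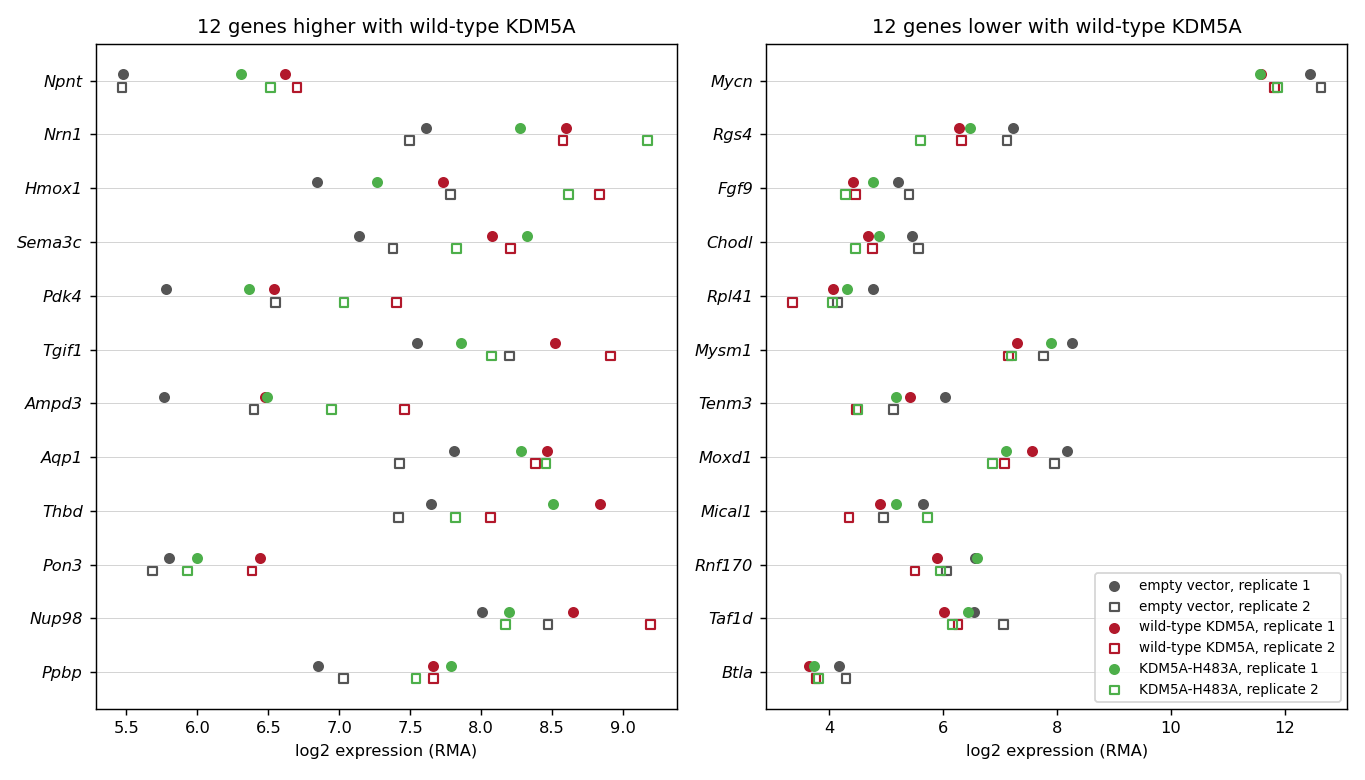
Log2 expression in each of the 6 arrays for the first 12 genes higher (left) and the first 12 lower (right) with wild-type KDM5A, ordered by the smaller of the 2 differences. Filled circles are replicate 1 and open squares replicate 2; the groups are 1.14 apart in Npnt, while in Hmox1, Pdk4 and Tenm3 the replicates lie as far apart as the groups and the groups overlap.

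Of the genes with known roles in heme handling and oxidative stress, Hmox1, Nqo1 and Slc48a1 were on the higher side. Hmox1, which encodes the inducible heme oxygenase, stood at 6.84 and 7.78 with empty vector and at 7.73 and 8.83 with wild-type KDM5A. Replicate 2 was above replicate 1 by 0.94 with empty vector and by 1.10 with wild-type KDM5A, so the groups overlapped although each difference was near 1, at 0.89 and 1.05. Nqo1, a quinone reductase gene, stood at 6.21 and 6.67 against 6.75 and 7.46. Slc48a1, a heme transporter gene, stood at 7.58 and 7.87 against 8.08 and 8.45. In both genes replicate 2 was again the higher array of its group, and the groups were 0.08 and 0.22 apart.

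Aldh1a7, Pon3 and Osgin2, also on the higher side, differed in how close their replicates were. Aldh1a7, an aldehyde dehydrogenase gene, stood at 4.48 and 4.89 against 5.03 and 6.37, so that replicate 2 gave a difference of 1.48 and replicate 1 of 0.55. Pon3, a lactonase gene of the paraoxonase family, stood at 5.80 and 5.68 against 6.44 and 6.39, with replicates 0.12 and 0.06 apart. Osgin2, named after an oxidative stress-induced growth inhibitor, was dim at 4.56 and 4.71 against 5.13 and 5.26. Pon3 thus held close replicates in both groups, and Aldh1a7 a wide pair in the wild-type group.

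The list of NRF2 and antioxidant genes had 26 measured members. NRF2, encoded by Nfe2l2, is the transcription factor that activates many genes of glutathione and quinone metabolism under oxidative stress. Hmox1 and Nqo1 met the rule, and 0 members were at least 0.5 lower in both replicates. Both differences were above 0 in 14 of 26 members (53.8%) and below 0 in 3, against 26.6% and 24.3% of all genes. The list medians were 0.11 in replicate 1 and 0.15 in replicate 2, against 0.01 and 0.00 over all genes. Members were brighter than all genes, with a median level of 7.26 against 5.52, so these shares are not matched for level. The metallothionein genes Mt1 and Mt2, which bind metals, came next with differences of 0.80 and 0.43 and of 0.65 and 0.23. Txnrd1, a thioredoxin reductase gene, had 0.22 and 0.47. The glutathione synthesis genes Gclc and Gclm had -0.60 and -0.01, and -0.40 and 0.34, so these stood lower with wild-type KDM5A in replicate 1. With limma, 0 of the 26 members passed an adjusted p of 0.05, and 2 were higher at an unadjusted p under 0.05.

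**Figure D3:**
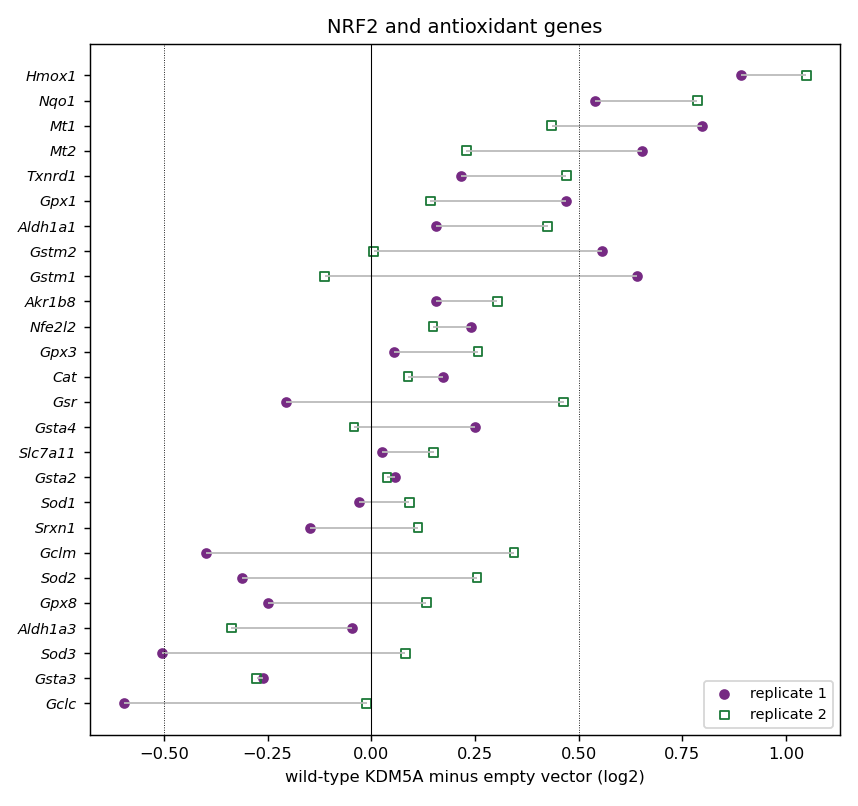
Differences between wild-type KDM5A and empty vector on the log2 scale for the 26 measured NRF2 and antioxidant genes, filled circles for replicate 1 and open squares for replicate 2. Hmox1 (0.89 and 1.05) and Nqo1 (0.54 and 0.79) lie past the dotted line at 0.5 in both replicates, and Gclc (-0.60 and -0.01) lies at the other end.

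Metabolic and transport genes were found in both directions. Pdk4, the kinase that switches off pyruvate dehydrogenase, stood at 5.78 and 6.55 with empty vector and 6.54 and 7.40 with wild-type KDM5A. The higher empty vector array and the lower wild-type array were level, so only the replicate number separates the groups. The AMP deaminase gene Ampd3 stood at 5.76 and 6.40 against 6.48 and 7.46, with the same order of replicates. Aqp1, a water channel gene, stood at 7.81 and 7.42 against 8.46 and 8.38 and had groups 0.57 apart. Nipa1, a magnesium transporter gene, and Smpdl3a, a gene of the sphingomyelin phosphodiesterase family, had differences of 0.69 and 0.52 and of 0.88 and 0.50. Groups were 0.52 and 0.50 apart in these genes.

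On the lower side, Moxd1, a monooxygenase gene, stood at 8.17 and 7.95 with empty vector and 7.56 and 7.08 with wild-type KDM5A. Rdh11, which encodes a retinal reductase, was level at 7.66 in both empty vector arrays and stood at 7.13 and 6.91 with wild-type KDM5A, a gap of 0.53. Among 28 measured genes of retinoid and xenobiotic metabolism, Aldh1a7 and Pon3 were higher and Rdh11 lower by the rule. The list medians were 0.09 and -0.03, near those of all genes. Slc17a6, a vesicular glutamate transporter gene, had differences of -0.53 and -0.51 at a mean level of 4.99. Dut, which encodes the enzyme that clears dUTP, had -0.79 and -0.51. ND5, a mitochondrially encoded subunit of respiratory complex I, stood at 10.3 and 9.61 against 9.67 and 9.10, and its groups overlapped.

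Among signalling genes, Ppbp, a platelet chemokine gene, stood at 6.85 and 7.03 with empty vector and at 7.66 in both arrays with wild-type KDM5A. Of 24 measured chemokine and inflammatory cytokine genes, Ppbp alone met the rule. Eda2r, a receptor of the tumour necrosis factor receptor family and a p53 target, stood at 5.30 and 4.97 against 5.91 and 5.53. Of the 26 measured CDK inhibitors and p53 targets it was the only member to meet the rule. The CDK inhibitor gene Cdkn1a came close, at 9.35 and 8.995 against 9.92 and 9.40, with differences of 0.57 and 0.41. Both genes had their groups apart, by 0.24 in Eda2r and by less in Cdkn1a.

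The remaining higher signalling and trafficking genes had differences between 0.51 and 0.94. Stam, an adaptor that sorts ubiquitinated receptors at endosomes, stood at 7.60 and 7.61 against 8.20 and 8.16, with replicates within 0.04 of each other. Ptprg, a receptor tyrosine phosphatase gene, had differences of 0.67 and 0.51, and the kinase gene Sbk1 had 0.58 and 0.65. Fnip2, which encodes a partner of folliculin, had 0.58 and 0.79, and Stk11ip, a binding partner of the kinase LKB1, had 0.61 and 0.67. The ubiquitin hydrolase gene Uchl1 had 0.52 and 0.61, and the dim autophagy gene Atg16l2 had 0.55 and 0.53. Ldb3, a gene of muscle Z-discs, had 0.53 and 0.94, but its other probe sets did not share the sign. In the representing probe sets, all of these had groups that did not overlap, by as little as 0.02 in Atg16l2.

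Lower signalling genes began with Rgs4, which encodes a brake on G protein signalling. It stood at 7.23 and 7.12 with empty vector and 6.29 and 6.33 with wild-type KDM5A, with groups 0.80 apart. The growth factor gene Fgf9 stood at 5.21 and 5.40 against 4.42 and 4.46, and its wild-type values were below the probe set median. Of 36 measured growth factors and receptors, Fgf9 alone met the rule. Btla, an inhibitory receptor gene of lymphocytes, stood at 4.17 and 4.29 against 3.64 and 3.77, at the 36.2nd percentile of probe sets. Rab14, a small GTPase of endosomes, had differences of -0.57 and -0.52, with overlapping groups. Mical1, an actin-oxidizing enzyme gene, had -0.75 and -0.60, and the ubiquitin ligase gene Rnf170 had -0.66 and -0.55. In both, replicate 1 was above replicate 2 in each group, and the groups were 0.05 and 0.16 apart.

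Transcription and chromatin genes were led by Mycn on the lower side. Mycn, a MYC family transcription factor, stood at 12.4 and 12.6 with empty vector and 11.6 and 11.8 with wild-type KDM5A, the brightest of the 54 genes, with groups 0.62 apart. Its level and difference rest on 1 probe set, since the others of Mycn lay between 3.44 and 4.10 and did not share the sign. Of the 12 genes of the MYC network Mycn alone met the rule, and Myc had differences of -0.13 and 0.81. Mysm1, a deubiquitinase of histone H2A, stood at 8.27 and 7.76 against 7.29 and 7.15. Taf1d, a subunit of the RNA polymerase I initiation factor, had differences of -0.54 and -0.80, and Gtf2f2, a subunit of TFIIF, had -0.90 and -0.51. In each of these 4 genes both wild-type arrays lay below both empty vector arrays.

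On the higher side, Tgif1, a homeobox repressor of TGF-beta signalling, stood at 7.55 and 8.20 with empty vector and 8.52 and 8.91 with wild-type KDM5A. The zinc finger gene Klf4 stood at 7.26 and 7.54 against 7.78 and 8.28. It was the only one of 33 measured immediate early and MAPK feedback genes to meet the rule. Nup98, a nuclear pore gene, had differences of 0.64 and 0.72, and the histone gene H2bc22 had 0.56 and 0.58. H2bc22 has a single probe set, whose ID ends in _x_at, the mark of one that may cross-hybridize. Gatad1, a zinc finger protein found in complexes with KDM5A and SIN3B, stood at 7.06 and 7.57 against 7.64 and 8.10, with groups 0.07 apart. Its other probe set had differences of opposite sign and does not repeat this.

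The last 4 genes on the lower side concern RNA or are unnamed. Snhg1, a host gene of small nucleolar RNAs, stood at 10.0 and 9.94 against 9.48 and 9.44. Pabpc4l, related to poly(A)-binding proteins, stood at 8.17 and 7.36 against 7.53 and 6.84 and had overlapping groups. Rpl41, a ribosomal protein gene, was chosen through a dim probe set at 4.77 and 4.14 against 4.07 and 3.35. Its brightest probe set, which may cross-hybridize, stood at 12.1 and 11.5 in both groups, another bright one had differences of 0.08 and -0.03, and a dim one stood at 5.67 and 5.27 against 5.34 and 4.75, so the Rpl41 entry concerns that probe set and not the main signal of the gene. The transcript 2900026A02Rik had differences of -0.55 and -0.50.

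Genes near the rule's limit had nearly the same values inside and outside it. Slc48a1 and Smpdl3a were the last inside on the higher side, each with a smaller difference of 0.50, and Crip2 (0.50, at 0.4986) and Cfap300 (0.49) were the first outside. On the lower side, Snhg1 and 2900026A02Rik were the last inside at -0.50, and Serpina1c (-0.49) and Bnc2 (-0.49) were the first outside.

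Of the 54 genes, 32 had more than 1 probe set, and their 65 other probe sets repeated the result unevenly. Differences had the same sign as the representing probe set in both replicates in 34 of the 65, and 2 of the 65 met the rule, while 0 met it in the opposite direction. These 2 were the Npnt probe set 1452106_at, at 5.02 and 5.26 against 6.77 and 6.84, and the Pcdh7 probe set 1449249_at, at 5.22 and 5.96 against 5.93 and 6.79. All probe sets shared the sign in 13 of the 32 genes, among them Npnt, Sema3c, Klf4 and Ccn4. For Klf4 the other probe set had differences of 0.28 and 0.60, and for Ccn4 it had -0.19 and -0.62. Rgs4 had a second probe set at 6.08 and 5.98 against 5.74 and 5.68, lower as well, and a dim one with 0.03 and -0.16. The 3 dimmer Npnt probe sets had 0.54 and 0.20, 0.13 and 0.04, and 0.01 and 0.01, and the second Sema3c probe set had 0.24 and 0.28. Both of these genes thus kept their direction across all probe sets, at very different sizes.

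Other genes ranged from probe sets that shared the sign to a single one that stood alone. The Mycn probe set near 12 stood alone, since the others lay between 3.44 and 4.10 and had differences of at most 0.11 in size. The second Nup98 probe set had 0.60 and 0.05, that of Tenm3 had -0.25 and -0.79, and that of Mical1 had -0.27 and -0.21. The 2 others of Rnf170 had -0.16 and -0.07, and -0.04 and 0.35, and the 2 others of Mysm1 had 0.16 and -0.28, and 0.09 and -0.32. Taf1d had 6 others, of which 4 were lower in both replicates, from -0.16 to -0.89. Rab14 had 6 other probe sets, 3 of them above 8, and none had both differences below 0. The second Fgf9 probe set had 0.23 and -0.10, and the second Rdh11 probe set had -0.14 and -0.10. The remaining Stam probe sets had 0.32 and 0.37, 0.27 and 0.21, and -0.62 and -0.17. For Cd151 the 3 probe sets that may cross-hybridize, with IDs ending in _x_at, had 1.16 and 0.49, 0.35 and 0.32, and 0.38 and 0.32. The remaining Cd151 probe sets had 0.07 and -0.09, and 0.16 and -0.20, and did not share the sign. Ldb3 had other probe sets with -0.03 and 0.30, and -0.74 and -0.07. Those of Pabpc4l (0.42 and -0.21), Dut (0.28 and -0.24), Sbk1 (0.11 and -0.08), Slc17a6 (0.19 and -0.32) and 2900026A02Rik (0.14 and -0.14) had mixed signs. The others of Osgin2 had 0.10 and -0.12, and -0.19 and 0.37. All other probe sets of Atg16l2, Nipa1, Ptprg, Slc48a1 and Snhg1 shared the sign. Probe sets of a gene share the RNA of the same arrays and are not replicates.

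**Figure D4:**
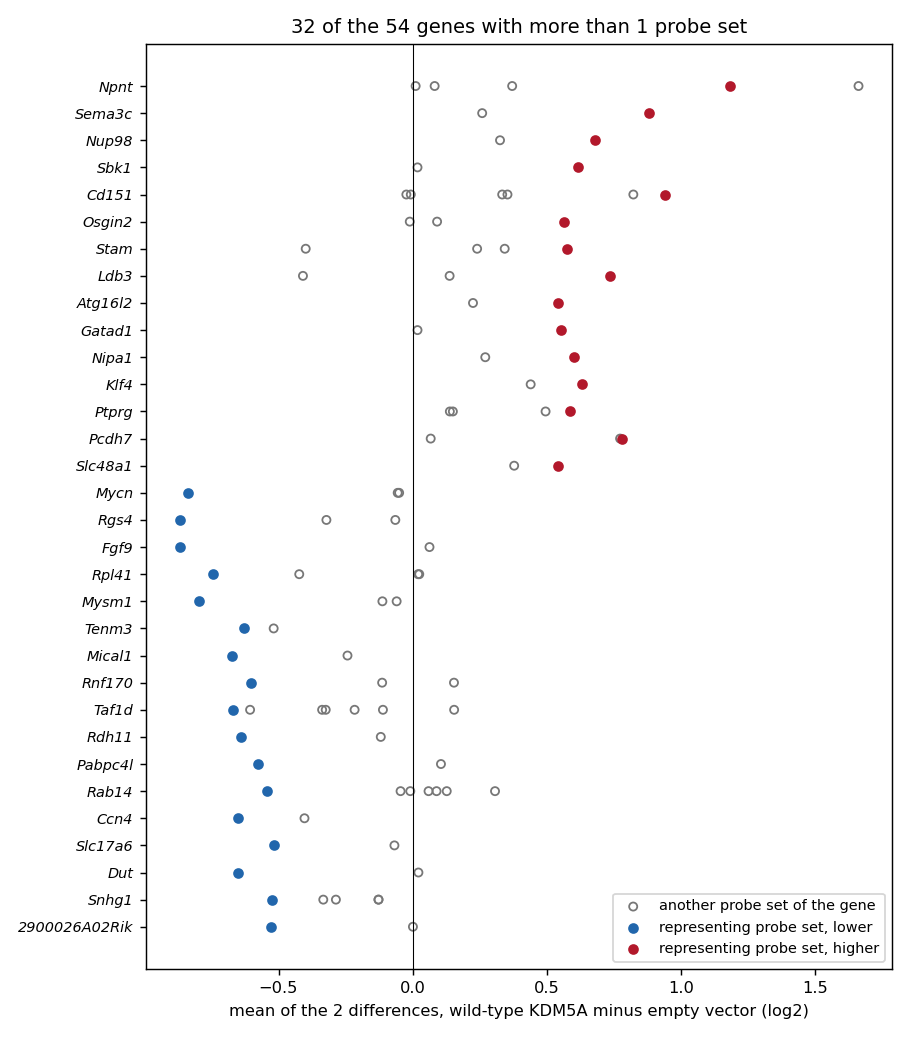
Mean of the replicate 1 and replicate 2 differences (wild-type KDM5A minus empty vector, log2) for every probe set of the 32 genes that have more than 1. Filled points are the probe sets that represent the genes, the brightest with an ID not ending in _x_at (red higher, blue lower), and open circles the others; 34 of the 65 others have the sign of the filled point in both replicates, and Rab14 has none.

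Some of the 54 genes differed by replicate number within every group. In 14 of them replicate 2 was above replicate 1 with empty vector, with wild-type KDM5A and with KDM5A-H483A alike. That count was not taken over all genes. For Pdk4 these 3 steps were 0.77, 0.87 and 0.67, and for Hmox1 they were 0.94, 1.10 and 1.35. For Tenm3 the steps were -0.90, -0.94 and -0.66, the opposite direction. Steps of at least 0.5 were found in 18 of the 54 genes with empty vector and in 16 with wild-type KDM5A. Over all 18194 genes, the empty vector arrays lay that far apart in 690, the wild-type arrays in 2030 and the KDM5A-H483A arrays in 2706. In 44 of the 54 the mean difference between groups was larger than the step within either group. The rule chose genes by these same differences, so nothing is read from that count. The part of the replicate number in these results was not tested.

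The KDM5A-H483A arrays share the empty vector controls with this comparison, so their values are set beside it without a measure of likeness. Npnt stood at 6.31 and 6.51 with KDM5A-H483A, between empty vector and wild-type KDM5A. Mycn stood at 11.6 and 11.9, near the wild-type values, and Chodl at 4.88 and 4.47. Nrn1 stood at 8.27 and 9.17, on either side of the wild-type values. Other genes lay nearer to empty vector. Rdh11 stood at 7.52 and 7.62, against 7.66 in both empty vector arrays. Stam stood at 7.74 and 7.62, against 7.60 and 7.61. Nup98 stood at 8.20 and 8.17 and Gatad1 at 7.39 and 7.09, between their empty vector arrays. Rgs4 and Gtf2f2 showed a wide pair with KDM5A-H483A, at 6.48 and 5.60 and at 4.74 and 6.25.

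Gene lists by replicate number showed which groups kept a direction and which did not. Lysosome and autophagy genes had medians of 0.35 and 0.14, with both differences above 0 in 18 of 27 members (66.7%) and below 0 in 1, against 26.6% and 24.3% of all genes. None of them met the rule. The list was brighter than all genes, with a median level of 7.88 against 5.52, so the shares are not matched for level. Lists were chosen with earlier results of these data known. The lysosomal galactosidase genes Gla and Glb1 had 0.31 and 0.66, and 0.60 and 0.34, and the autophagosome gene Map1lc3b had 0.35 and 0.36. Glycolysis and hypoxia genes had medians of 0.24 and 0.11, with both differences above 0 in 14 of 29. Immediate early and MAPK feedback genes had 0.15 and 0.16, with 15 of 33, among them the feedback inhibitor Spry2 at 0.44 and 0.45. The medians of these 3 lists lay above that of all genes in both replicates, and Klf4 was the only one of their members to meet the rule.

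Other lists reversed between the replicates. Interferon-stimulated genes had medians of 0.68 in replicate 1 and -0.11 in replicate 2, and collagens and interstitial matrix genes 0.24 and -0.60. Of the 32 matrix genes, 0 (0%) had both differences above 0 and 8 (25.0%) had both below 0, against 26.6% and 24.3% of all genes, so the share below 0 was near that of all genes. The median level of these genes was 9.24, against 5.52 over all genes. Sterol and fatty acid synthesis genes had 0.16 and -0.41. In this list the desaturase gene Scd2 stood at 11.7 and 11.9 with empty vector and 12.04 and 11.1 with wild-type KDM5A, and the cholesterol transporter gene Stard4 at 9.41 and 9.81 against 9.43 and 8.85. Hmgcs1, an early enzyme of sterol synthesis, was lower in both, at 10.2 and 10.2 against 9.83 and 9.37. Ribosome biogenesis genes went the other way, with medians of -0.36 and 0.13.

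Genes tied to KDM5A in other cells gave no member. Among the 11 measured genes reported elsewhere as bound or repressed by KDM5A, 1 (9.09%) had both differences above 0 and 4 (36.4%) had both below 0, against 26.6% and 24.3% of all genes, with medians of 0.05 and -0.13. The one above 0 was Cdkn1a. The 11 genes had a median level of 8.54, against 5.52 over all genes, so the shares are not matched for level. The bromodomain genes Brd2 and Brd8 had -0.49 and -0.13, and -0.17 and -0.11. Tnc, the tenascin C gene, had -0.33 and -0.66, and the mitofusin gene Mfn2 had -0.13 and 0.27. Among 18 measured RB, E2F and SIN3 partner genes, none met the rule, and E2f5 came nearest with -0.48 and -0.32. Rbbp4, which encodes a histone-binding subunit of such complexes, had 0.78 and -0.76.

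**Figure D5:**
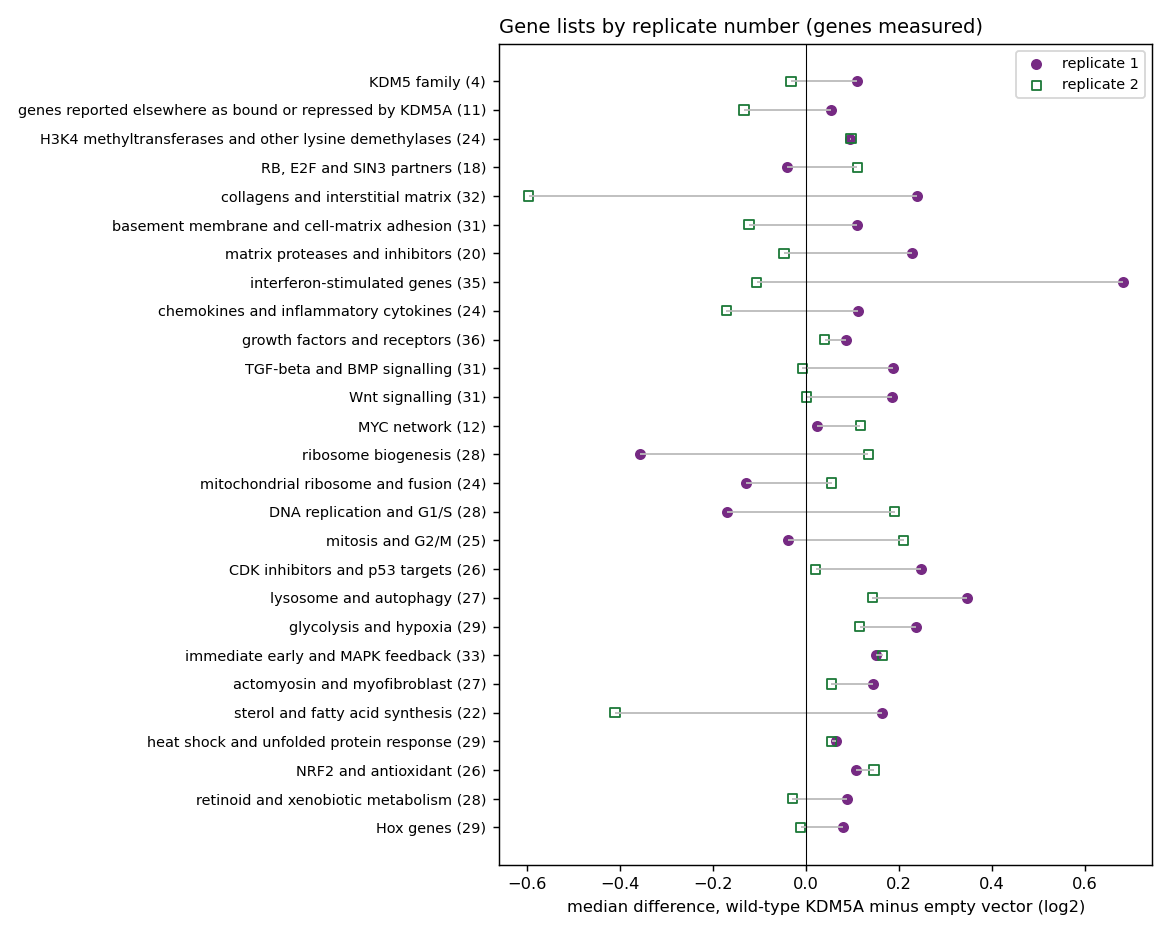
Median difference between wild-type KDM5A and empty vector (log2) for 27 gene lists, with the number of measured genes in brackets; filled circles are replicate 1 and open squares replicate 2. Lysosome and autophagy genes lie above 0 in both (0.35 and 0.14), while interferon-stimulated (0.68 and -0.11) and collagen and interstitial matrix genes (0.24 and -0.60) lie on opposite sides of 0.

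Of the genes that went opposite ways, some had a single difference larger than any of the 54. In replicate 2 these were Mme (-1.82), Hmcn1 (-2.70) and Serpinb1a (-1.53). In replicate 1 they were Ifit1 (2.18), Rtp4 (1.97) and Cxcl15 (1.81). Mest and Angpt1 had no such difference. Mme, which encodes the membrane protease neprilysin, stood at 7.71 and 7.03 with empty vector and at 9.02 and 5.22 with wild-type KDM5A. Mest, an imprinted gene of the hydrolase family, stood at 7.30 and 7.14 against 8.53 and 6.03, and the angiopoietin gene Angpt1 at 7.37 and 7.39 against 8.34 and 6.45. Hmcn1, the gene of the matrix protein hemicentin, stood at 7.41 and 7.22 against 8.22 and 4.52. In all 4 genes the wild-type arrays lay on either side of both empty vector arrays. These 4 were chosen after their values were seen.

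When wild-type KDM5A was set against empty vector over all genes with limma, which estimates the spread from the 6 arrays, 0 of 18194 genes (0%) passed a Benjamini-Hochberg adjusted p of 0.05, and the lowest such p was 1. An unadjusted p below 0.05 was reached by 459 genes (2.52%), 275 higher (1.51%) and 184 lower (1.01%). This limma fit made no use of the replicate number. With the number as a block, limma also called 0 genes, over 6 arrays and over 4. An unadjusted p below 0.05 was then reached by 713 genes over 6 arrays and 1093 over 4. None of the genes named above, and no member of any list, passed the adjusted threshold. A missed threshold does not show that a gene was unchanged.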

How the data were processed

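Log2 expression of 45101 probe sets was measured on 6 Affymetrix mouse M430 2.0 arrays (3 groups of 2). The authors deposited log2 values, and the submitters' processing notes name RMA, a method that makes all arrays share a distribution and so hides a change in total RNA. The labels' protocols name a whole-transcript labelling kit. No further scaling was applied. The platform annotation gave 1 gene symbol for 34958 probe sets, several for 932 and none for 9211. For 34754 probe sets the Entrez ID was found in RefSeq and its symbol was used, whether or not it differed. For each of 18194 genes the brightest probe set over the 6 arrays was taken, avoiding IDs ending in _x_at unless a gene had no other, as for 100 genes, H2bc22 among them. Differences were computed in Python 3.11.15. Limma 3.58.1 (R 4.3.3) used lmFit and eBayes with a mean per group, two-sided, Benjamini-Hochberg over all genes, and was checked on simulated data. Promoters are 250 bases before RefSeq start sites (GRCm38.p6).

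Described genes and the 35 lists (768 of 818 genes measured) were chosen with earlier results of these data known. The rule for named genes took the first 12 per direction by the smaller difference, list members that met the criterion, the KDM5 family, and the 2 genes on either side of 0.5; the remaining genes were added so that all 54 are covered, and list members given as examples were chosen after their values were seen. Alternatives covered the samples, probe sets, level filter, centring, replicate block and each array left out. Array number limits the precision.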

Additional observations from a re-analysis of the deposited data

Results flagged for a closer look

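Among the 10143 probe sets that the annotation pairs with no gene or with several, which no comparison above uses, 2 were at least 0.5 higher and 8 at least 0.5 lower with wild-type KDM5A in both replicates. The 2 higher ones were 1416239_at, at 7.53 and 7.63 with empty vector and 8.08 and 8.23 with wild-type KDM5A, and 1416914_s_at, at 7.37 and 7.47 against 8.01 in both. Of the lower ones, 1440862_at stood at 7.60 and 6.19 against 6.73 and 5.30, with overlapping groups.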

How the results depend on the processing

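Limma called 0 genes under every alternative run, including each array left out, with a smallest adjusted p between 0.0971 and 1. With the replicate number as a block it called 0 genes over 6 arrays (713 at an unadjusted p under 0.05) and 0 over 4 arrays (1093). Replicate steps of empty vector and wild-type KDM5A correlated across genes at 0.31, and those of empty vector and KDM5A-H483A at 0.02. Those of wild-type KDM5A and KDM5A-H483A correlated at 0.53. Whether the numbers pair the samples was not tested, and the block changed no call. The 459 genes at an unadjusted p under 0.05 became 138 to 662 with an array left out, 236 among 11891 brighter genes and 1363 of 45101 probe sets. The counts of 32 higher and 22 lower genes depended on the settings. They were 102 and 57 with a size of 0.4, 5 and 4 with 0.75, and 1 and 0 with 1. The mean of all probe sets gave 22 and 6 (25 of the 54 genes kept), and any probe set of a gene gave 53 and 34. Centring each array on its median gave 50 and 12 (44 kept), which moved the share of higher genes from 59.3% to 80.6%; it adds 0.01 to the replicate 1 difference and 0.04 to that of replicate 2. Without use of the number, 11 and 6 genes were left. Without replicate 1 or 2, a single difference of 0.5 gave 307 to 761 higher and 383 to 393 lower genes. Log2 fold changes of the 42 named genes kept their sign in 330 of 336 alternatives, and all 6 changes of sign were in the KDM5 family: Kdm5a at -0.031 without wild-type KDM5A replicate 1 (-0.031 to 0.097 with each array left out), Kdm5b at 0.055 with the mean of all probe sets, 0.18 without empty vector replicate 1 and 0.036 without wild-type KDM5A replicate 2 (-0.31 to 0.18), Kdm5c at -0.0034 with the mean of all probe sets, and Kdm5d at 0.099 without wild-type KDM5A replicate 2 (-0.37 to 0.099). The cause was not tested. Of the 42 named genes, 34 were chosen because both differences had one sign, so kept signs were largely fixed by that choice. The fits to 4 arrays only and with the block over 6 arrays return the main estimate, so they could not change a sign. Sizes were less steady: with an array left out, the log2 fold change moved over 1.5 times in 15 of the 34 named genes among the 54, namely Aldh1a7, Ampd3, Hmox1, Klf4, Mical1, Nqo1, Nup98, Pdk4, Rnf170, Rpl41, Slc48a1, Taf1d, Tenm3, Tgif1 and Thbd. Tenm3 went from -0.63 to -0.16 without wild-type KDM5A replicate 2 and -1.10 without wild-type KDM5A replicate 1, Hmox1 from 0.97 to 0.42 and 1.52, and Nqo1 from 0.66 to 0.31 and 1.01, under the same omissions.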
